A study of Mus musculus with 6 samples.

Results

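Broad promoters at annotated gene starts were examined in CAGE libraries (cap analysis of gene expression, which sequences short tags from the capped 5′ ends of RNA) of mESCs (embryonic stem cells of the mouse) and mOPCs (its oligodendrocyte progenitors). The mESCs were the male line R08, grown without feeders in serum and leukemia inhibitory factor. The mOPCs were oli-neu, a neural line derived from such progenitors, grown with T3, thyroxine, basic fibroblast growth factor and PDGF-BB. Each cell type gave 3 libraries of nuclear RNA from untreated cells. Each cell type is therefore represented by 1 line, and no source used here ties the libraries to separate cultures, so the p-values measure the spread between these libraries, which may be technical. The libraries held 16657021 to 40928704 tags. In the deposited counts, all libraries of a cell type carried the same text label, which differed between mESCs and mOPCs. What the label stands for was not established here. If it marks a preparation, preparation and cell type cannot be told apart. Stem cell and oligodendrocyte markers were found mainly in the line they mark. Pou5f1, Nanog, Zfp42, Tdgf1 and Dppa5a had 0 tags in mOPCs, and the summed 8 mESC markers reached 3840 to 4181 CPM (tags per 1000000 of the library) in mESCs against 41.2 to 46.0 in mOPCs. The summed 8 oligodendrocyte lineage markers reached 2394 to 2544 CPM in mOPCs against 15.7 to 16.9 in mESCs, although Nkx2-2 was at 0 in all mOPC libraries and Pdgfra reached only 7.82 to 8.60 CPM there. Markers of differentiated oligodendrocytes summed to 246 to 281 CPM in mOPCs and 2.35 to 3.20 in mESCs, and the 3 neuronal markers to 79.9 to 101 CPM in mOPCs, all of it from Syt1, with Rbfox3 and Snap25 at 0. Astrocyte and fibroblast markers stayed at or below 23.0 CPM in all libraries, and the part of such cells in the results was not tested.

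The members were chosen by the measured tags themselves. Tags of the 6 libraries were pooled, positions with at least 30 tags on the same strand were joined across gaps of up to 20 bp, and clusters of at least 100 tags within 500 bp of a same-strand annotated 5′ end of a protein-coding transcript were kept. A promoter was called broad when its central 80% of tags, from the 10th to the 90th percentile of start positions, spanned at least 50 bp. This selection gave 3622 broad promoters of 19659 promoters at annotated starts (18.4%), out of 31147 clusters of at least 100 tags in all. The broad promoters belonged to 3347 genes, of which 243 had more than 1, and 21 lay near the 5′ ends of more than 1 gene. A group of 3 lay on chromosome M, at the starts of mt-Nd1, mt-Co1 and mt-Nd6, where RNAs are cut out of long precursors, so that a tag cluster there need not mark a promoter.

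RNA polymerase II starts transcription in different ways. At sharp promoters, often with a TATA box, nearly all RNAs of a gene begin at the same base, whereas at broad promoters, typical of CpG-rich starts of housekeeping and developmental genes, they begin at many bases across a stretch of open chromatin. Within either kind, the preferred start is a purine preceded by a pyrimidine, the core of the initiator element. Cell types can use different bases of the same broad promoter, which changes the first bases of the RNA without changing the gene.

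The sequences below show the starts used at broad promoters. They are mm10 (GRCm38) bases from RefSeq promoter windows and GENCODE transcripts, written 5′ to 3′ on the transcribed strand. Capitals mark the deposited position of the most used start and the base after it. The first set gives the 8 broad promoters with the most tags, each around the dominant start of the pooled tags.
Qk, chr17:10319319-10319370, minus strand: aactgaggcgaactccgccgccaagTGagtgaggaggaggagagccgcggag
Dync1h1, chr12:110601445-110601496, plus strand: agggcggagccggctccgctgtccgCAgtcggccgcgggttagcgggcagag
Ccng1, chr11:40755192-40755243, minus strand: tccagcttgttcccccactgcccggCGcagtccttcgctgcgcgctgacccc
Nedd4, chr9:72662410-72662461, plus strand: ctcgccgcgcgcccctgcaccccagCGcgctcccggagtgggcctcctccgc
Xpo1, chr11:23256005-23256056, plus strand: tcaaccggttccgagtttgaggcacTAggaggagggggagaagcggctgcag
Jarid2, chr13:44731307-44731358, plus strand: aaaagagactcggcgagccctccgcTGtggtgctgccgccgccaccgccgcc
Mpzl1, chr1:165634505-165634556, minus strand: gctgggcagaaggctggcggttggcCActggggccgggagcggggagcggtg
Eif4g1, chr16:20672782-20672833, plus strand: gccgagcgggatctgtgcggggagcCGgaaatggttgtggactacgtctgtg
The second set gives promoters whose dominant start moved between the cell types, with the dominant start of the pooled tags of each cell type in capitals. In Pcmtd1, Zbtb25 and Adam22 the mESC start is the first marked and the mOPC start the second. In Ppp1cb, Fam13c and Kif16b the mOPC start is the first marked. Single libraries differed in some of these. The marked mESC start was dominant in 1 of 3 mESC libraries in Ppp1cb and Fam13c. The marked mOPC start was dominant in 2 of 3 mOPC libraries in Ppp1cb and Kif16b and in 1 of 3 in Adam22.
Pcmtd1, chr1:7089000-7089184, plus strand: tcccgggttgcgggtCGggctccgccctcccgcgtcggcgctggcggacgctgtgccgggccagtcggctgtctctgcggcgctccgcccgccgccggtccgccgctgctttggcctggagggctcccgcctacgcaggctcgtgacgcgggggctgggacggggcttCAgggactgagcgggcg
Zbtb25, chr12:76369383-76369608, minus strand: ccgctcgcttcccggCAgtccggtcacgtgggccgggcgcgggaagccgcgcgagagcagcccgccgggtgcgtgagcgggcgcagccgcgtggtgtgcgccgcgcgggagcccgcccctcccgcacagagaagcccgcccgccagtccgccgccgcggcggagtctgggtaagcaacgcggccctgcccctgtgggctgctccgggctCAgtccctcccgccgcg
Adam22, chr5:8368116-8368221, minus strand: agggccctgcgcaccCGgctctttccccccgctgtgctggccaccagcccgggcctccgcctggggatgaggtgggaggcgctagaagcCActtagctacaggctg
Ppp1cb, chr5:32459046-32459175, plus strand: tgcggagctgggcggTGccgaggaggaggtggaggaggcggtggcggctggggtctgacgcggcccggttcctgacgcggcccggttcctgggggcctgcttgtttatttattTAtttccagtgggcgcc
Fam13c, chr10:70440690-70440875, plus strand: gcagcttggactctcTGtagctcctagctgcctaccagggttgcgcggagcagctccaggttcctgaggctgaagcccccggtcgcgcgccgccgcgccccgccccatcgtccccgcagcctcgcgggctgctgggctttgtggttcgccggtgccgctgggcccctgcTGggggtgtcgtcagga
Kif16b, chr2:142901431-142901561, minus strand: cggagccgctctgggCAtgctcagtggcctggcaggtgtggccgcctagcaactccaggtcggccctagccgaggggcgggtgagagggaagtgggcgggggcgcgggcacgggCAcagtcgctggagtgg
All 20 marked steps in these 14 sequences are a pyrimidine followed by a purine, with C or T at the deposited position and A or G after it.

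The widths that chose the members ran from 50 to 395 bp with a median of 62 bp and quartiles of 54 and 75 bp. Of the 3622 promoters, 2706 were 50 to 74 bp wide, 596 were 75 to 99 bp wide and 320 were 100 bp or wider, 15 of them 200 bp or more. Ttc3, Enah and Pcyt2, with 50 bp, were the best covered promoters just inside the threshold, and Iqgap1, Matr3 and Rbm25, with 49 bp, those just outside, so that the boundary falls within a continuous slope of widths. A median of 33 positions per promoter held at least 30 tags. The dominant start took a median of 17.5% of the tags (quartiles 13.4% and 23.5%), against 36.4% in annotated promoters under 50 bp. Tags were spread least evenly in Jarid2, where 48.2% fell on 1 position, among the 8 promoters with the most tags, and the most even of all members was Ppp1cb with 5.00%. Of the members with at least 30 tags in a library, 83.5% to 85.0% were at least 50 bp wide in the mESC libraries and 85.8% to 86.1% in the mOPC libraries, a description, since the same libraries chose the members. With the tags of each cell type taken alone, 2464 members were broad in both cell types, 500 members met the width in mESCs alone, 594 in mOPCs alone and 64 in neither of them.

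**Figure D1:**
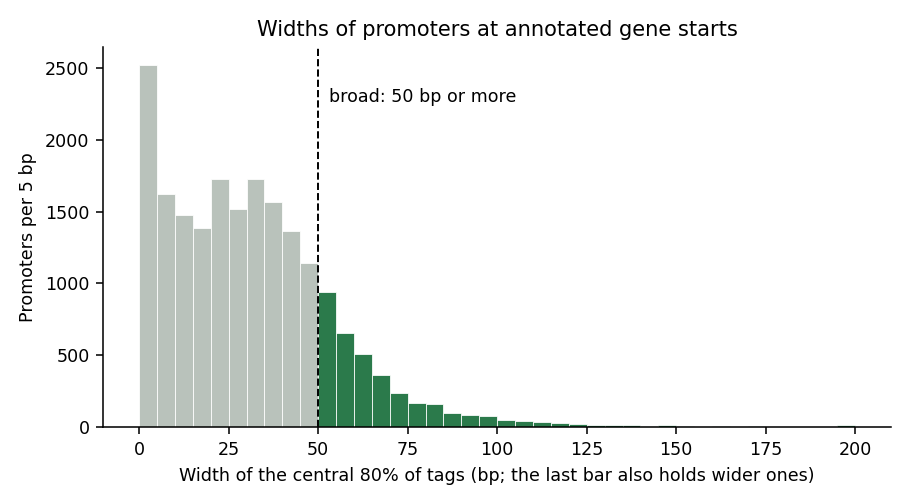
Width of the central 80% of tags (x axis, bp) against the number of promoters per 5 bp (y axis) for the 19659 promoters at annotated gene starts, with the 3622 broad promoters in green. The counts fall steadily across the dashed line at 50 bp, and few promoters are wider than 100 bp.

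Broad promoters lay on or close to the annotated 5′ end. The annotated end fell inside the cluster in 2627 members (72.5%), and the dominant start was within 50 bp of it in 2456 (67.8%). The dominant start was downstream of the annotated end in 2064 members and upstream in 1512, with a median of 7 bp downstream (quartiles -11 and 44.8 bp). Broad promoters took 29.1%, 29.3% and 29.5% of the tags of all promoters at annotated starts in the 3 mESC libraries. In the 3 mOPC libraries they took 32.1%, 32.4% and 32.6%. The mOPC libraries were all higher. The exact two-sided permutation test gave p = 0.1, the smallest p that 3 libraries against 3 allow. The pooled tags of these same libraries chose the members, so the shares and this p are a description.

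The bases around the dominant start held few TATA motifs. TATA, searched on the transcribed strand from 36 to 20 bases before the dominant start, was found in 32 of 3126 broad promoters with known bases there (1.02%), and in 3.14% of all promoters at annotated starts. The longer TATAAA occurred in 0.256% of broad promoters and 1.32% of all. The GC box GGGCGG, searched on both strands over the 50 bases before the start, was found in 34.6% of broad promoters and 32.5% of all. CCAAT was found in 5.79% against 6.79%, the ETS-type CCGGAAG in 6.84% against 7.56%, and the NRF1-type GCGCATGCG in 0.856% against 1.10%, all on both strands of the same window. TATAAA holds TATA, the other motifs do not hold each other, and a promoter may be counted under several. In the 50 bases after the dominant start, GC content had a median of 68% in broad promoters and 68% in all promoters at annotated starts, with a median of 5 CG dinucleotides in each. These shares describe letters in a window and are not binding sites.

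Starts of broad promoters fell mainly on pyrimidine-purine steps when the deposited position was read as the pyrimidine. Read as the base before the deposited position and the base at it, the share of broad promoter tags on such a step was 7.01%, 6.85% and 6.89% in mESC libraries and 6.74%, 6.44% and 6.57% in mOPC libraries. Read as the base at the deposited position and the base after it, the share was 67.2%, 67.3% and 67.0% in mESC libraries and 68.5%, 68.9% and 68.9% in mOPC libraries. The deposited position thus lies mostly on the pyrimidine of the initiator step, 1 base upstream of the purine, on both strands. By this second reading mOPCs were higher by 1.56 percentage points, and by the first they were lower, with a difference of -0.333 points. The exact two-sided permutation test gave p = 0.1 for both readings, the smallest possible. With each promoter weighted alike, the difference on the second reading was 0.406 points (exact permutation p = 0.1). By share of tags, mOPCs were also higher on the second reading outside the broad promoters, by 2.67 points in intermediate (11 to 49 bp wide) and by 15.3 points in sharp promoters (10 bp or less). Weighting each promoter alike gave 0.827 and 1.66 points, and the cell types overlapped in both classes (exact permutation p = 0.2 for each). On the second reading CG was the most frequent step, with 25.1%, 25.5% and 25.1% of tags in mESCs and 24.4%, 25.3% and 25.1% in mOPCs. CA took 20.2%, 19.9% and 20.1% in mESC libraries and 21.9%, 21.5% and 21.9% in mOPC libraries, so that the 2 cell types did not overlap for CA and overlapped for CG. Of the positions used by broad promoters, 49.0% held the step on the second reading, below the share of tags, so that positions on the step carried more tags than others.

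The position of starts within broad promoters was then compared between mESCs and mOPCs. For each promoter, tags upstream of its pooled median start were set against tags at or downstream of it, and the change of this division between cell types was tested with edgeR's quasi-likelihood test fitted over all clusters with at least 50 tags in each cell type, with Benjamini-Hochberg adjustment and a threshold of 0.05. Because the width was taken over both cell types, a promoter whose cell types start at different places is more easily broad. The counts below are therefore a description. A call refers to the division of tags, and the mean or dominant start of a called promoter can lie the other way. Of 3201 broad promoters tested, 1548 (48.4%) had starts further downstream in mOPCs and 913 (28.5%) further upstream, while 740 did not pass and 421 had too few tags to be tested. Over all 16216 clusters tested, 27.6% were called downstream and 28.2% upstream, so that the share called upstream was near the background and the share called downstream was above it. Broad promoters held a median of 5258 pooled tags, against 942 in annotated promoters under 50 bp. The part of this depth in the shares called was not tested. Intermediate promoters were called downstream in 27.1% and upstream in 31.2% of cases. The mean start of broad promoters differed by a median of 2.98 bp downstream in mOPCs (quartiles -3.83 and 10.2 bp), against -0.016 bp in intermediate promoters. The median SD of the mean start between libraries was 1.06 bp within mESCs and 0.958 bp within mOPCs. A difference of at least 10 bp was seen in 799 of the promoters called downstream (24.96% of those tested) and 342 of those called upstream (10.7%), against 6.999% and 3.51% over all clusters tested.

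The excess of downstream calls was seen in each class of broad promoter looked at. It was 45.6% against 29.1% at 50 to 74 bp, 52.7% against 27.9% at 75 to 99 bp and 63.4% against 25.2% at 100 bp or more. Promoters broad in both cell types taken alone gave 1106 downstream and 653 upstream of 2340 tested. Members chosen by the width in mESCs alone gave 1504 downstream and 870 upstream, and those chosen by the width in mOPCs alone 1408 and 860. Among promoters whose level differed by less than 2-fold, 691 of 1406 were downstream and 412 upstream. Promoters higher in mOPCs were downstream in 55.4% and upstream in 20.2% of cases, and promoters lower in mOPCs in 42.5% and 34.8%.

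**Figure D2:**
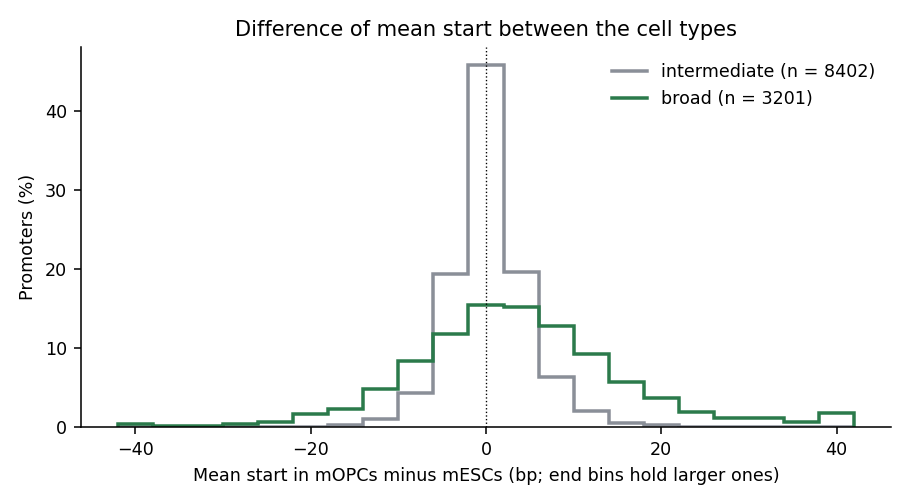
Difference of the mean start between mOPCs and mESCs (x axis, bp, positive when mOPC starts lie further downstream) against the percent of promoters per 4 bp (y axis), for the 3201 broad and 8402 intermediate promoters tested. The broad promoters spread more widely and are shifted to the right, with a median of 2.98 bp against -0.016 bp, and the end bins also hold larger differences.

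The same displacement appeared in the medians of single libraries. These rest on the same tags and members as the counts above, so they are again a description and no separate evidence. In 3012 broad promoters with at least 30 tags in every library, the median mean start lay 10.7, 10.9 and 10.7 bp downstream of the annotated 5′ end in the mESC libraries and 13.4, 13.3 and 13.0 bp downstream in the mOPC libraries. The cell types did not overlap and differed by 2.46 bp (10.8 ± 0.117 bp in mESCs and 13.3 ± 0.201 bp in mOPCs, SD, n = 3 each, exact permutation p = 0.1, the smallest possible). In 7871 annotated promoters under 50 bp the medians were 4.80, 4.72 and 4.65 bp in mESCs and 4.72, 4.93 and 4.85 bp in mOPCs, which overlapped (exact permutation p = 0.2). Measured from the pooled median start of each promoter instead, starts in these narrower promoters lay slightly further upstream in mOPCs, at a median of -0.325 bp against -0.207 bp in mESCs, without overlap (exact permutation p = 0.1). By the same measure broad promoters lay at 1.05 bp in mOPCs and -1.44 bp in mESCs, also without overlap (exact permutation p = 0.1).

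**Figure D3:**
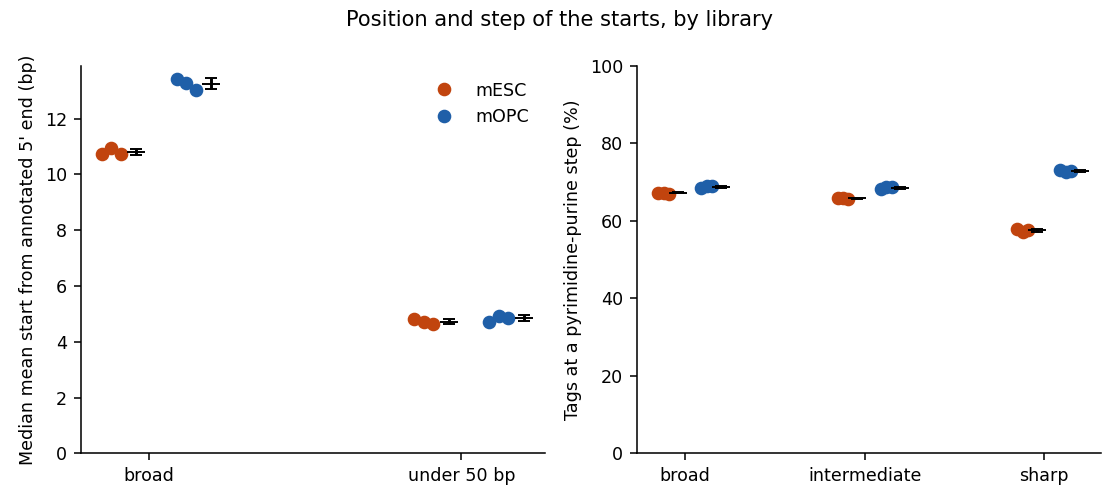
Left, median distance of the mean start from the annotated 5′ end (y axis, bp) in broad promoters and in annotated promoters under 50 bp. Right, percent of tags (y axis) whose deposited position and next base form a pyrimidine-purine step in broad, intermediate and sharp (10 bp or less) promoters. Each point is a library, and the black bars are the mean and SD of 3 libraries of a cell type. mOPCs lie above mESCs for broad promoters in the left panel and for all 3 classes in the right panel. By share of tags the gap is widest in sharp promoters (15.3 points), but it is 1.66 points with each promoter weighted alike.

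Dominant starts gave a coarser measure, the single most used position of each library. Of the 3012 promoters compared, 1099 (36.5%) had the same dominant start in all 6 libraries, against 50.5% of all clusters compared. In 525 (17.4%) the dominant starts of all mOPC libraries lay downstream of those of all mESC libraries, and in 340 (11.3%) upstream. Over the 12786 clusters compared, the shares were 9.21% downstream and 8.72% upstream. In the 865 separated broad promoters the dominant starts of the pooled cell types lay a median of 36 bp apart (quartiles 21 and 55 bp), and in 274 they lay 50 bp or more apart. The dominant start was the same in all 3 libraries of mESCs in 70.2% of members and in all 3 of mOPCs in 72.5%, against 75.1% and 77.8% of all clusters compared. A fixed dominant start in each cell type that differed between them was found in 510 members (16.9%) and in 11.5% of all clusters compared. Separated starts were mostly a change of weight. The mESC dominant start of these 865 promoters took a median of 16.3%, 16.1% and 15.8% of tags in the mESC libraries and still 7.28%, 7.59% and 7.61% in the mOPC libraries. The mOPC dominant start took 15.7%, 15.5% and 15.4% in the mOPC libraries and 7.90%, 7.84% and 7.79% in the mESC libraries. In 855 promoters every mOPC library had tags at the mESC start, and in 844 every mESC library had tags at the mOPC start. Where the bases were known, 86.6% of the mESC starts and 89.7% of the mOPC starts lay on a pyrimidine-purine step, against 92.0% of starts shared by all libraries.

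Among the promoters displaced downstream in mOPCs, Pcmtd1, which encodes a protein related to isoaspartyl methyltransferases, moved by 89.4 bp. Its mean start lay at 91.1, 95.4 and 94.3 bp in mESCs and at 186, 183 and 180 bp in mOPCs, and the dominant start was at 85 bp in every mESC library and at 238 bp in every mOPC library. The position at 85 bp took 7.57%, 7.57% and 6.90% of tags in mESCs and 2.11%, 2.32% and 2.41% in mOPCs, while the position at 238 bp took 1.17%, 1.41% and 1.54% in mESCs and 11.8%, 10.8% and 11.3% in mOPCs. Both starts were thus used in both cell types with reversed weight. Zbtb25, a zinc finger gene of the BTB family, had a log2 fold change of -0.02 ± 0.10 (SE, edgeR adjusted p = 0.86), although the Zbtb25 level scaled by library totals alone was higher in mOPCs by 0.32 and passed (edgeR adjusted p = 0.0014). Its dominant start moved from -200 bp in every mESC library to -6 bp in every mOPC library. In such bulk samples, fewer cells of a type and less RNA per cell cannot be told apart. The position at -6 bp took 3.52%, 4.95% and 3.80% of Zbtb25 tags in mESCs and 24.7%, 25.1% and 24.6% in mOPCs. Zfp652, another zinc finger gene, moved from 210 to 316 bp, and its mESC start took 22.8%, 24.4% and 19.3% of tags in mESCs against 3.29%, 3.59% and 4.49% in mOPCs. Adam22, a receptor of the ADAM family found at synapses and in myelinating glia, had its dominant start at -125 bp in all mESC libraries and at -54, -54 and -51 bp in mOPCs. The start at -125 bp was nearly unused in mOPCs, with 0.209%, 0.574% and 0.333% of tags.

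Displacement upstream in mOPCs was largest at Tmx3, which encodes a thioredoxin-related protein of the endoplasmic reticulum, with a mean start at 77.5, 74.8 and 73.6 bp in mESCs and at 0.990, -1.44 and -1.78 bp in mOPCs. The start used by mESCs at 106 bp took 18.4%, 19.3% and 17.1% of tags there and 2.24%, 2.29% and 1.75% in mOPCs. Fam13c moved from a mean start of 158, 167 and 162 bp in mESCs to 97.9, 95.2 and 89.9 bp in mOPCs, and its dominant start was at 191, 232 and 232 bp in mESCs and at 37 bp in all mOPC libraries. The mOPC start of Fam13c at 37 bp took 11.2%, 11.5% and 10.8% of tags in mOPCs and 1.23%, 0.334% and 0.295% in mESCs. The mESC shares rest on few tags, since the promoter held 649, 299 and 339 tags in those libraries. The level of Fam13c was higher in mOPCs (log2 fold change 3.98 ± 0.11, SE). Rock1, a protein kinase of the actin cytoskeleton, had its dominant start at -40 bp in all mESC libraries and at -164 bp in all mOPC libraries. Ppp1cb, a catalytic subunit of protein phosphatase 1, was the flattest of these promoters. Its dominant start was at -63, 127 and 127 bp in mESCs and at -176, -161 and -161 bp in mOPCs. The position at -63 bp took 5.80%, 3.18% and 3.52% of Ppp1cb tags in mESCs and 4.08%, 3.25% and 4.24% in mOPCs, which overlapped. Kif16b, a kinesin of endosomes, had its dominant start at -3 bp in every mESC library, with 21.9%, 21.6% and 17.4% of tags, and at -102, -36 and -102 bp in mOPCs, where the position at -3 bp held 5.14%, 4.36% and 3.95%. The promoters named for their displacement were taken from those past the edgeR test of the start shift, so that their passing is part of the choice.

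**Figure D4:**
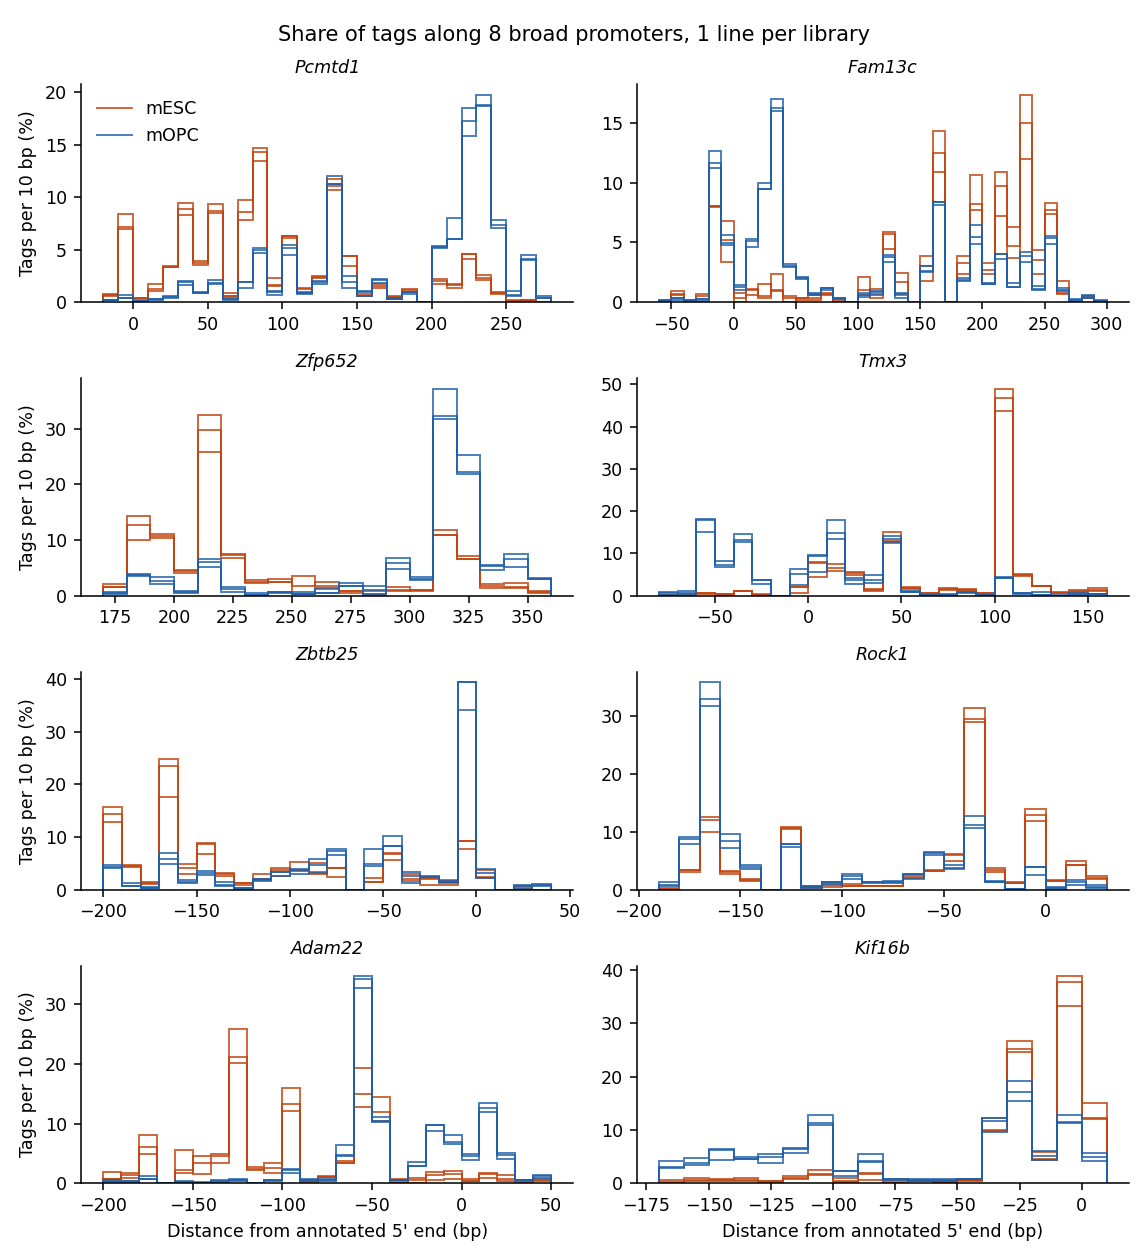
Share of each library's tags (y axis, % per 10 bp) along 8 broad promoters by distance from the annotated 5′ end (x axis, bp), with 3 mESC lines in orange and 3 mOPC lines in blue. Mean starts move downstream in mOPCs in the left column and upstream in the right column, and at most promoters the favoured starts of each cell type are still used by the other.

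The 8 broad promoters with the most tags were those of Qk, Dync1h1, Ccng1, Nedd4, Xpo1, Jarid2, Mpzl1 and Eif4g1. Qk encodes the RNA-binding protein Quaking, known for its part in myelination. Its level, which did not pass the test, was at 1585, 1588 and 1570 CPM (from here on scaled by TMM) in mESCs and 1476, 1383 and 1445 in mOPCs (log2 fold change -0.14 ± 0.09, edgeR adjusted p = 0.13). Scaled by library totals alone, the Qk level was higher in mOPCs by 0.20 on the log2 scale and passed (edgeR adjusted p = 0.018). Its starts lay further upstream in mOPCs, with a dominant start at 57 bp in all mESC libraries and at 16, -1 and 16 bp in mOPCs. The share of its tags downstream of the pooled median start was 73.8%, 73.9% and 71.3% in mESCs and 52.8%, 46.5% and 47.3% in mOPCs. Ccng1, which encodes cyclin G1, a target of p53, had the largest fall of the 8, from 2888, 2678 and 2705 CPM in mESCs to 17.1, 20.2 and 18.2 in mOPCs (log2 fold change -7.22 ± 0.12, edgeR adjusted p = 3.6e-63). Its dominant start moved from 93 bp to 62 bp in every library. Dync1h1, the heavy chain of cytoplasmic dynein, fell from 3625, 3458 and 3085 CPM to 236, 180 and 229. Its dominant start was at 18 bp in all 6 libraries, while its mean start moved downstream by 8.77 bp (edgeR adjusted p = 0.0011) and the central 80% of its tags narrowed from 69 to 29 bp. Mpzl1, a transmembrane protein of the myelin protein zero family, rose from 37.0, 31.0 and 37.9 to 934, 901 and 1017 CPM. Its dominant start was at -2 bp in all 6 libraries, while its mean start moved downstream by 13.3 bp (edgeR adjusted p = 3.6e-09) and the central 80% of its tags widened from 39 to 65 bp. Nedd4, a ubiquitin ligase, Xpo1, the nuclear export receptor, Jarid2, a cofactor of the polycomb complex, and Eif4g1, the scaffold of translation initiation, fell by 0.95, 1.05, 3.38 and 1.55 on the log2 scale and each had 1 dominant start in all libraries. Around that base the mean start of Nedd4 moved upstream by 11.9 bp (edgeR adjusted p = 1.2e-15) and that of Xpo1 by 22.8 bp (edgeR adjusted p = 1.2e-11). Jarid2 and Eif4g1, with mean start differences of 2.59 and 2.83 bp, did not pass the shift test (edgeR adjusted p = 0.21 and 0.68).

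Levels of whole promoters changed in most broad promoters. In edgeR's quasi-likelihood test over 31136 clusters, all 3622 members were tested, of which 1584 (43.7%) were higher in mOPCs, 1687 (46.6%) lower and 351 not called. Over all clusters, 45.5% were higher and 44.7% lower, so that the members were called about as often as other clusters. Changes of at least 2-fold were seen in 1089 promoters higher (30.1%) and 1127 lower (31.1%) in mOPCs, against 37.1% and 35.7% of all clusters. The absolute log2 fold change had a median of 1.36 in broad promoters and 2.20 in all clusters. The part of the number of tags per promoter in these differences was not tested.

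Among genes higher in mOPCs the largest changes were at promoters with 0 tags in the 3 mESC libraries. Tnr, the extracellular matrix protein tenascin-R, had 662, 585 and 672 CPM in mOPCs. With a floor of 3 tags over the pooled tags of the mESC libraries, it was at least 17543-fold higher (CPM without TMM scaling, as for the folds that follow). The bound was 7282-fold for Lhfpl3, 7221-fold for Myt1, a transcription factor of oligodendrocyte progenitors, 5203-fold for Cntn1, a cell adhesion molecule of axons and glia, and 4847-fold for Dock10, an activator of small GTPases. Tnr was 113 bp wide and had its dominant start at 2 bp in every mOPC library. Among the promoters with 0 tags in the 3 mOPC libraries was that of Zfp42 (also Rex1), a marker of pluripotency. It had 713, 675 and 687 CPM in mESCs and was at least 18685-fold lower in mOPCs. The bound was 16132-fold for Prrg4, 14143-fold for Utf1, a chromatin protein of pluripotent cells, 13911-fold for Lactb2 and 11468-fold for the Y-linked Ddx3y. The other broad promoter on chromosome Y, that of Uty (named after its values were seen), also had 0 tags in mOPCs. Tags were counted only at positions with at least 30 pooled tags. These promoters passed that filter through the cell type where they are high, which favours 0 tags in the other. The bounds therefore hold for the counted positions and not for whole genes. Since the tags have no molecular identifiers, such bounds take account of counting error alone.

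Gene groups differed in how often their promoters were broad, against 18.4% of all promoters at annotated starts. Cyclins and cyclin-dependent kinases were broad in 18 of 66 promoters (27.3%), vesicle coats and adaptors in 12 of 49 (24.5%) and translation initiation factors in 18 of 88 (20.5%). The proteasome had 2 of 40 (5.00%), cytosolic ribosomal proteins 12 of 116 (10.3%), respiratory complex I 5 of 43 (11.6%) and the replication-dependent histones 0 of 69. RNA polymerase II and general transcription factors had 7 of 54, Mediator 6 of 39, the spliceosome 11 of 57, ubiquitin-conjugating enzymes 11 of 60, the nuclear pore 5 of 35 and histone deacetylases, acetyltransferases and demethylases 15 of 74. The width chose these members, so the shares are descriptions without a test.

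The 12 broad promoters of cytosolic ribosomal proteins, the structural proteins of the translating ribosome, were all lower in mOPCs, against 44.7% of all clusters and 46.6% of broad promoters. Their log2 fold change had a median of -3.17, against 0.03 in the whole set of clusters. Of the 11 tested for a shift, 10 had starts further downstream in mOPCs, none upstream. The mean start differed by a median of 12.3 bp (0.0059 bp over all clusters). Of 11 compared for dominant starts, 3 had them downstream in all mOPC libraries and 4 had the same one in all 6 libraries. Those shares were 17.4% and 36.5% over broad promoters, and 9.21% and 50.5% over all clusters compared. The shares called downstream and upstream were 27.6% and 28.2% over all clusters and 48.4% and 28.5% over broad promoters. Rpl13 fell from 239, 233 and 206 CPM in mESCs to 22.1, 23.1 and 21.7 in mOPCs. Its dominant start was at 33 bp in all mESC libraries and at 97 bp in all mOPC libraries, and its mean start moved from 40.4, 40.8 and 41.0 bp to 79.7, 75.8 and 77.8 bp. Tags downstream of the pooled median start made up 44.4%, 44.2% and 44.9% in mESCs and 92.1%, 88.5% and 90.5% in mOPCs (edgeR adjusted p = 6.2e-27). The mean start of Rpl37 (named after its values were seen) moved by 20.7 bp, while the dominant start of its pooled tags was the same in both cell types. Rpl24, also named after its values were seen, was the member that did not pass, with a difference of -2.08 bp (edgeR adjusted p = 0.56).

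Among the 15 broad promoters of histone deacetylases, acetyltransferases and demethylases, enzymes that add or remove marks on chromatin, 8 were higher and 7 lower in mOPCs, a split near that of all clusters (45.5% and 44.7%). Of the 15, 12 had starts further downstream and 1 further upstream, against 27.6% and 28.2% over all clusters and 48.4% and 28.5% over broad promoters, and the median difference was 5.01 bp. Kdm5b, a demethylase of histone H3 lysine 4, was the member that moved upstream, from a dominant start of 33 bp in all mESC libraries to 14 bp in all mOPC libraries. Kdm1a, the demethylase LSD1, moved downstream from -12 bp to 19 bp in every library, with a mean start difference of 5.47 bp (edgeR adjusted p = 4.6e-08). Kdm2b (named after its values were seen) moved downstream by 34.2 bp. Translation initiation factors were lower in mOPCs in 14 of 18 and higher in 3, and 5 of them were called downstream and 8 upstream. Eif2s1 (named after its values were seen) was called downstream, although its mean start lay 2.52 bp further upstream in mOPCs. In the nuclear pore, the channel of transport across the nuclear envelope, all 5 promoters were lower in mOPCs and all 3 tested were called upstream. The mean start lay 7.86 bp further upstream in mOPCs in Aaas and 16.4 bp in Seh1l. The dominant start of the pooled tags was unchanged in Aaas and lay 14 bp further downstream in mOPCs in Seh1l. Mediator, which links regulators to RNA polymerase II, held 1 of the wider members, Med12, where the dominant start moved from -160 bp in all mESC libraries to 1 bp in all mOPC libraries. The level of Med12 rose from 50.2, 43.4 and 47.5 to 168, 160 and 172 CPM (log2 fold change 1.82 ± 0.10, edgeR adjusted p = 7.6e-29). Of the 6 Mediator promoters, 2 were higher and 4 lower, and 3 were called downstream and 2 upstream. Those of Ccnc and a pair at Cdk8 are counted again among cyclins and cyclin-dependent kinases, so these lists overlap.

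The remaining groups were mixed. For comparison, 45.5% of all clusters were higher and 44.7% lower, with 27.6% downstream and 28.2% upstream of those tested. Broad promoters were higher in 43.7% and lower in 46.6%, with 48.4% downstream and 28.5% upstream of those tested. RNA polymerase II and general transcription factors had 6 of 7 promoters lower and 5 of 7 downstream, with Polr2e lower by a log2 fold change of -2.01 ± 0.10 and with its dominant start at 82 bp in all 6 libraries, while its mean start moved downstream by 2.16 bp (edgeR adjusted p = 0.016). The spliceosome had 2 higher, 7 lower, 3 downstream and 3 upstream of 11. Vesicle coats and adaptors had 2 higher, 10 lower, 6 downstream and 4 upstream of 12. Ubiquitin-conjugating enzymes had 2 higher, 7 lower, 3 downstream and 4 upstream of 11, with Ube2k moving from a dominant start of 31 bp in all mESC libraries to -7 bp in all mOPC libraries. Cyclins and cyclin-dependent kinases had 9 higher and 9 lower of 18, and of 16 tested 8 were called downstream and 3 upstream. Respiratory complex I had 4 of 5 lower and 1 downstream against 3 upstream, and both proteasome promoters, of Psma6 and Psma7, were lower and passed no shift test. The 4 broad promoters of pluripotency factors, of Zfp42, Utf1, Lin28a and Sall4, were all lower in mOPCs. The 5 broad promoters of oligodendrocyte lineage genes, among them those of Sox6 and Olig1 and a pair at Gpr17, were all higher. At its counted positions, Sox6 had 0 tags in mESCs and was at least 2081-fold higher. Olig1 also had 0 mESC tags at its counted positions, yet 0.540 to 0.607 CPM in mESCs within 500 bp of its annotated 5′ ends. None of these 9 had enough tags in both cell types for a shift test. Lists were drawn up with earlier results of these data known and are no independent evidence.

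The widest members spread their starts far along the gene start. Dst, which encodes the cytoskeletal linker dystonin, was 296 bp wide, with a dominant start at -319, -319 and -186 bp in the mESC libraries and at -47 bp in all mOPC libraries. Its level rose from 73.7, 76.8 and 82.7 to 204, 231 and 252 CPM (log2 fold change 1.56 ± 0.10, edgeR adjusted p = 9.3e-25). Ppp1cb and Fam13c, at 285 and 246 bp, were both among the widest and among the most displaced. The widest of all was the mitochondrial cluster at mt-Nd6, with 395 bp, where the dominant start was at the annotated end in every library and took 48.4% of the pooled tags, while the mean start moved upstream by 64.3 bp (edgeR adjusted p = 0.0054).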

How the data were processed

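Nuclear CAGE libraries of mESCs and mOPCs, 3 each, were analysed. The deposited values are raw counts of tags per 5′ position and strand on mm10, without normalization, 16657021 to 40928704 per library. Per the labels, the authors processed reads with CASAVA 1.8 and BWA 0.5.9, while their methods name another aligner for CAGE. Genes came from GENCODE vM21, and starts were given 1-based. Members and gene lists were chosen with earlier results of these data known. Levels and start shifts were tested with edgeR 4.0.16 (quasi-likelihood, Benjamini-Hochberg) in R 4.3.3, with library totals from all tags. TMM and filterByExpr were used for levels and not for start shifts. DESeq2 1.42.0 and limma 3.58.1 served as alternatives. Library values were compared by exact two-sided permutation tests (scipy 1.17.1, Python 3.11.15). Fold changes are mOPCs over mESCs, and positive distances are downstream. Tested on simulated counts with 200 planted changes, the level test recovered 100% with 5.66% false calls over 31136 clusters, and the shift test 90.5% with 9.05% false over 17220 clusters.

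No genome sequence was used here: bases came from 32851 RefSeq promoter windows and GENCODE transcripts, which were identical at all 3304348 bases held by both, and known bases covered 83.9% to 89.8% of broad promoters in the windows used. Sequences on chromosome 18 were not printed. Named promoters were the 8 with the most tags, the 5 widest, the 5 with the largest mean start difference in each direction among those past the shift test with 1000 or more tags in each cell type and dominant starts that did not overlap, the 5 with the largest fold change in each direction, the 3 on either side of the width threshold and the best covered members of each list, some of which are not reported here. Alternatives covered thresholds, scaling, tool, split point, thinning to 16657021 tags, a replicate block and each library left out. The second reading of the start step and the choice of members by the width of 1 cell type were added after seeing the data.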

Additional observations from a re-analysis of the deposited data

How the results depend on the processing

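The number of broad promoters, 3622, moved with the rule: it was 5952 and 2368 with at least 10 and 60 tags per position, 1951 with positions joined up to 10 bp, and 6129 and 2027 with a width threshold of 40 and 60 bp. Leaving out 1 library gave 3045 to 3422. Under 11 alternatives each, calls of levels stayed within 1.5 times the counts given (1538 to 1863 higher in mOPCs, 1445 to 1693 lower), and scaling by library totals alone moved the median log2 fold change of all clusters from 0.03 to 0.38. Downstream calls stayed between 1106 and 1597 and upstream calls between 653 and 944. Deviations of same-numbered libraries had correlations of 0.0989, 0.0784 and 0.0522, against -0.134 to 0.061 for libraries of different number. These small values do not settle whether the replicate numbers pair the libraries. With the replicate block 1587 promoters were higher, 1687 lower, 1569 downstream and 944 upstream. Median starts separated the cell types in 1880 promoters, against 865 for dominant starts. The difference in pyrimidine-purine steps, -0.333 percentage points, was 0.152 with each promoter weighted alike and 1.56 on the second reading of the step. The offset from the annotated start, 2.46 bp, was 2.67 bp for dominant starts. The cause of these changes was not tested. With 3 libraries each, no exact permutation test of library values could reach a p below 0.1, and promoters under 50 tags in a cell type carry no start comparison.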
